A study of Mus musculus with 15 samples.

Results

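The Bcl2 family decides at the mitochondrial outer membrane whether a cell lives or dies. Here 10 of its genes were followed through an allelic series of Apc, which holds together the machinery that degrades beta-catenin: Bcl2, Bcl2l1, Mcl1, Bax, Bak1, Bcl2l11, Bbc3, Pmaip1, Bid and Bad. Every probe set whose only platform gene symbol is one of these names was taken, whatever its values. That gave 29 of the 45101 probe sets of the array, for 9 of the 10 genes, and 18194 genes had a probe set in all. Bax had none under its symbol in the annotation used and was not analysed here.

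The cells were LSK cells (lineage negative, Sca-1 and Kit positive), the bone marrow fraction that holds haematopoietic stem and early progenitor cells, from C57BL6 mice. The 4 genotypes at Apc were 15lox/15lox (KO, 3 arrays), 15lox/1638N (N1638, 3 arrays), 15lox/1572T (T1572, 3 arrays) and wt/wt (WT, 6 arrays). The 15lox allele is deleted by Cre, and per the labels 1638N and 1572T are hypomorphic alleles. Cells of all groups, WT included, were cultured in Stemspan with the cytokines mSCF, mTpo and mFlt3L, received a retrovirus carrying Cre and GFP, and were sorted for GFP before total RNA was amplified. Sorting for GFP marks cells that took up the virus, and RNA was read only from those. The labels do not say whether the arrays of a group came from separate animals, so p-values measure the spread between these arrays, which may in part be technical.

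In this family the guardians Bcl2, Bcl2l1 (Bcl-xL) and Mcl1 hold the effectors Bax and Bak1 in check. The BH3-only proteins Bcl2l11 (Bim), Bbc3 (Puma), Pmaip1 (Noxa), Bid and Bad bind the guardians, and some of them also activate the effectors directly. Freed effectors open pores through which cytochrome c leaves the mitochondria and starts the caspase cascade. In blood-forming cells Mcl1 is required for stem cell survival, Bim sets cell number when cytokines are withdrawn, and Puma and Noxa are transcriptional targets of p53.

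WT arrays 1 to 3 stood apart from the rest. Their mean lay within 0.05 log2 of the mean of WT arrays 4 to 6 on 96.7% of probe sets, against 20.3% to 25.6% for the mutant groups, and on 25 of the 29 probe sets of the Bcl2 family. They were therefore left out of the main comparison, which used WT 4 to 6 and the 9 mutant arrays. Array medians of these 12 arrays ran between 6.65 and 6.84 on the log2 scale. By Xist, female-type arrays numbered 2 of 3 in KO, 1 of 3 in N1638, 1 of 3 in T1572 and 0 of 3 in WT 4 to 6, so the arrays of a mutant group did not all come from 1 animal. The labelled genotypes were visible in Apc itself: probe set 1420956_at read 5.58, 6.10 and 5.69 in KO, 8.47, 8.67 and 8.52 in N1638, 8.97, 8.86 and 8.64 in T1572, and 9.72, 9.61 and 9.93 in WT. Of the other 3 Apc probe sets, 1420957_at and 1450056_at were also lower in KO than in WT (differences of -3.88 and -1.43 log2), and 1435543_at was 1.71-fold higher in KO (adjusted p = 0.0133). Axin2, a direct target of beta-catenin, was 27.2-fold higher in KO than in WT (probe set 1436845_at, adjusted p = 1.88e-05) and 14.5-fold higher in N1638 (adjusted p = 0.000228), while the T1572 difference of 1.20 log2 had an adjusted p of 0.447. The other Axin2 probe set, 1421341_at, was 2.16-fold higher in KO (adjusted p = 0.024) and 1.77-fold in N1638 (adjusted p = 0.0934). The progenitor genes Kit, Cd34 and Flt3 were present on all arrays, and the summed linear level of 7 of 9 progenitor markers ran from 30069 to 32216 in KO, 30295 to 33134 in N1638, 27773 to 35808 in T1572 and 29936 to 33209 in WT.

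Of the 9 measured members, Pmaip1 was the one gene called higher in KO and in N1638 cells. No probe set of a member was called in T1572 cells or called lower in any genotype. In the counts that follow, the family means these 9 genes. A probe set was called when limma's moderated test, adjusted by Benjamini-Hochberg over all 45101 probe sets, gave an adjusted p under 0.05. In KO against WT this was 1 of 29 probe sets, where 1.49% of all probe sets were called. In N1638 against WT it was 1 of 29, where 1.38% of all were called. T1572 against WT gave 0 of 29, where 0.0288% of all were called, with a lowest adjusted p of 0.49. At an unadjusted p under 0.05 there were 4 probe sets higher and 2 lower in KO (20.7% of the family, 10.2% of all probe sets), 1 and 1 in N1638 (6.9%, 16% of all), and 2 and 0 in T1572 (6.9%, 6.84% of all). The members called number 1 or 0 in each comparison, too few to set apart from the background.

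The differences were small throughout. In KO against WT, 18 probe sets lay above 0 and 11 below, between -0.57 and 0.70, with a median of 0.02 against -0.03 over all probe sets. In N1638 against WT, 17 lay above and 12 below, between -0.76 and 0.70, with a median of 0.02 against 0.00 over all. In T1572 against WT, 15 lay above and 14 below, between -0.27 and 0.73, with a median of 0.01 against -0.01 over all. No probe set of these 9 genes differed from WT by as much as 1 log2 unit. The 95% interval of the difference stayed within 1 log2 unit on either side of 0 for 21 of 29 probe sets in KO, 24 in N1638 and 25 in T1572. The arrays of KO and WT did not overlap on 4 probe sets that were higher and 2 that were lower, where 17.4% of all probe sets were free of overlap. For N1638 these numbers were 4 and 4 (26.5% of all), and for T1572 they were 3 and 1 (12.6% of all). These bulk samples cannot tell fewer cells of a type from less RNA per cell.

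**Figure D1:**
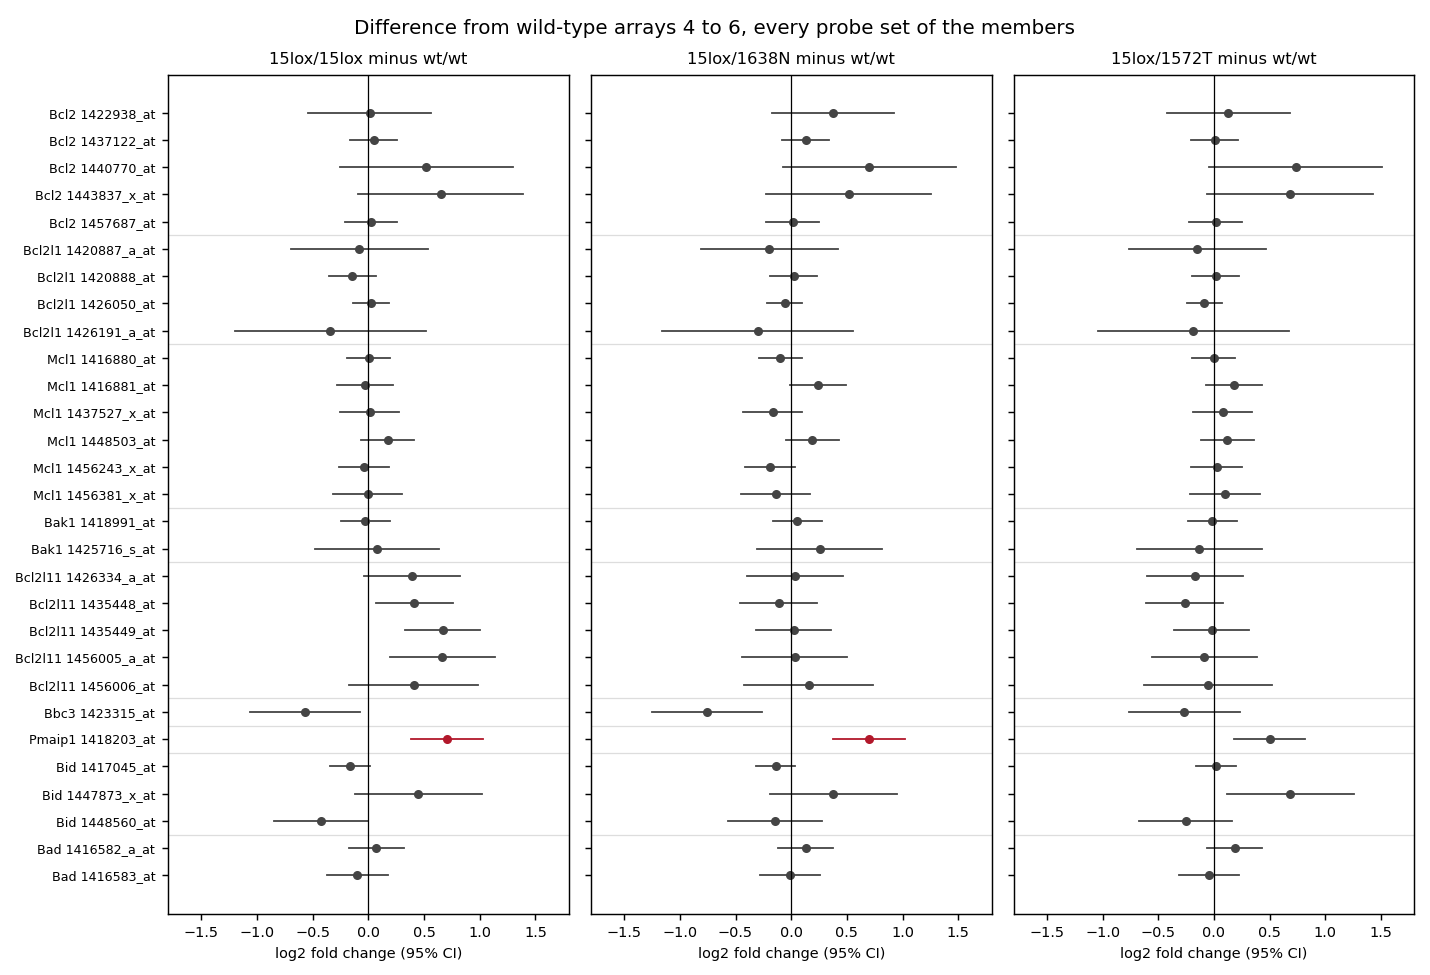
Difference from WT arrays 4 to 6 in log2 units for all 29 probe sets, one panel per mutant genotype; points are fold changes, bars are 95% confidence intervals (limma, n = 3 arrays per group), red marks an adjusted p under 0.05 and grey lines separate genes. Pmaip1 is the only red point in the 15lox/15lox and 15lox/1638N panels, there is none in the 15lox/1572T panel, and the 5 Bcl2l11 points all lie right of 0 in the 15lox/15lox panel only.

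Pmaip1 encodes Noxa, a BH3-only protein that binds Mcl1. Its single probe set, 1418203_at, read 11.70, 11.44 and 11.44 in KO, 11.63, 11.40 and 11.54 in N1638, 11.62, 11.04 and 11.31 in T1572, and 10.97, 10.71 and 10.79 in WT 4 to 6. All 9 mutant arrays lay above WT 4 to 6. WT 1 to 3, whose single values may not be plain measurements, read 10.78, 10.82 and 11.07, the last above the lowest T1572 array. The KO difference was 0.70 ± 0.15 log2 (SE), a 1.63-fold higher level (adjusted p = 0.040, limma). The N1638 difference was 0.70 ± 0.15, 1.62-fold (adjusted p = 0.0454), and the T1572 difference was 0.50 ± 0.15, 1.41-fold (adjusted p = 0.490, unadjusted p = 0.00564).

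The Pmaip1 calls were close to the threshold. With sex type as a covariate the adjusted p was 0.215 in KO and 0.0848 in N1638, so neither call held. Over the 12 fits that each left out 1 array, the KO call held in 2 and the N1638 call in 3, with adjusted p between 0.0191 and 0.178 for KO and between 0.0278 and 0.165 for N1638. The difference itself stayed between 0.62 and 0.78 in KO and between 0.64 and 0.77 in N1638. Among arrays of male type alone, the 5 mutant arrays read 11.04 to 11.70 and the 3 WT arrays 10.71 to 10.97. KO and N1638 differed by 0.00 ± 0.15 (95% interval -0.32 to 0.33).

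**Figure D2:**
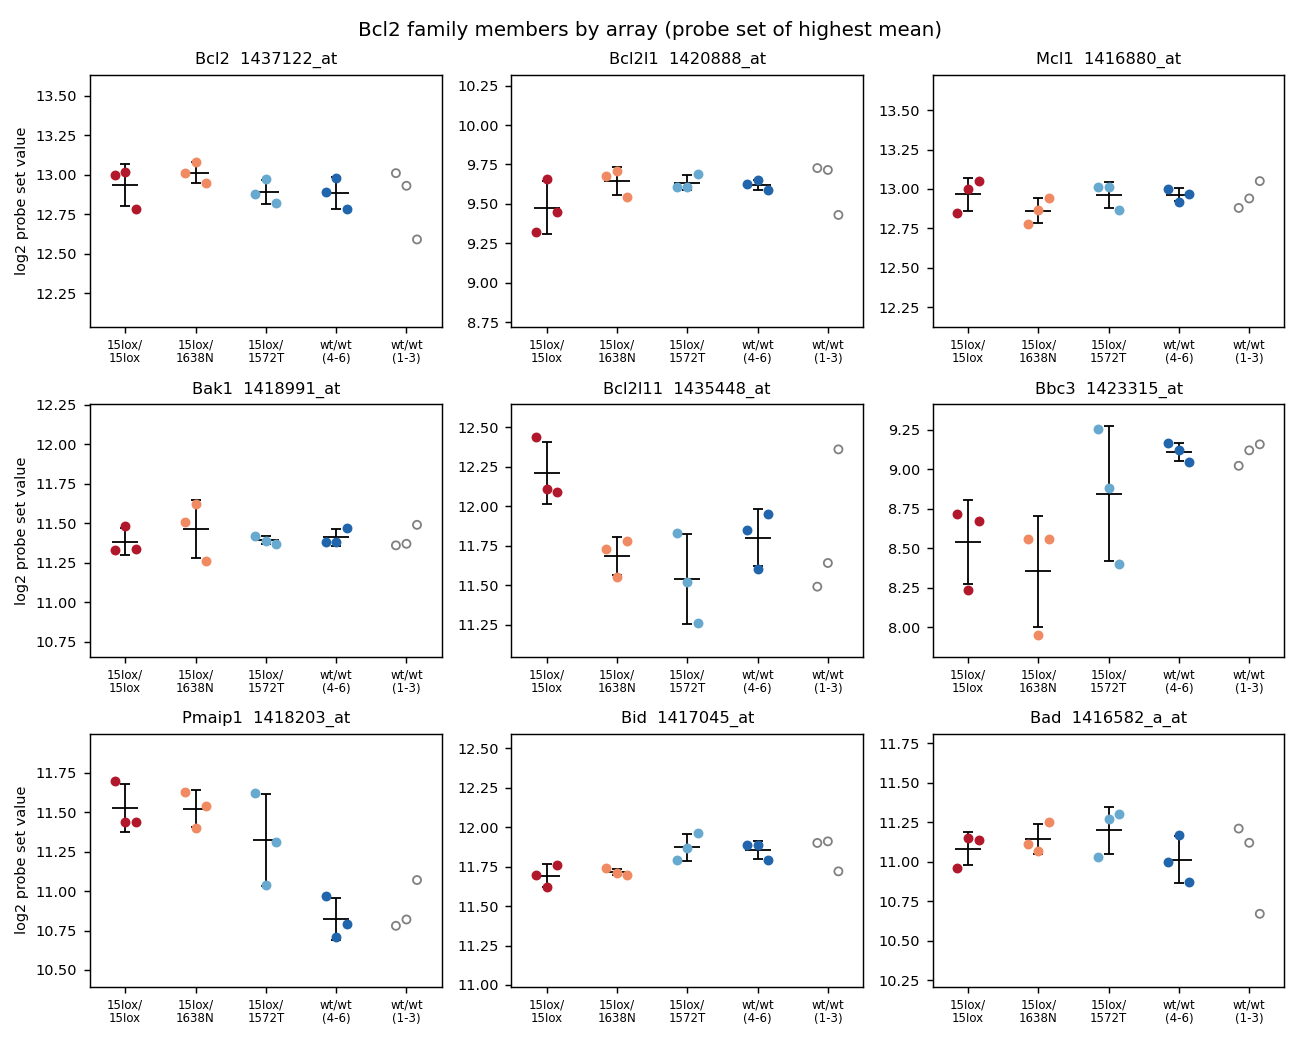
Log2 value of each of the 9 measured genes on every array (probe set of highest mean; panels differ in their log2 range), with filled points for the 12 arrays in the comparison, hollow grey points for WT 1 to 3, and black bars for mean and SD (n = 3). Pmaip1 sits higher in the mutant groups than in WT 4 to 6, Bbc3 sits lower in 15lox/15lox and 15lox/1638N, and the panels of Bcl2, Mcl1 and Bak1 show groups that overlap.

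Bcl2l11 encodes Bim, a BH3-only protein that binds all guardians and can activate the effectors. It was measured by 5 probe sets, and KO cells had a higher mean than WT on each of them, but none was called. On probe set 1435449_at the 3 KO arrays read 7.63, 7.44 and 7.79, the N1638 arrays 7.11, 6.80 and 7.01, the T1572 arrays 7.10, 6.65 and 7.04, and WT 4 to 6 read 6.83, 6.84 and 7.19. Here KO arrays lay above all other arrays in the comparison, but WT 3, which was left out, read 7.51 and lay above the lowest KO array.

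The KO minus WT difference of Bcl2l11 was 0.67 ± 0.15 on 1435449_at (1.59-fold, adjusted p = 0.0664, unadjusted p = 0.00111). It was 0.66 ± 0.22 on 1456005_a_at (adjusted p = 0.258), 0.41 ± 0.16 on 1435448_at (0.367), 0.41 ± 0.26 on 1456006_at (0.673) and 0.39 ± 0.20 on 1426334_a_at (0.553). In N1638 cells the same 5 differences ran from -0.11 to 0.16, and in T1572 cells from -0.26 to -0.02, with no call. The mean over the 5 probe sets was 0.51 ± 0.13 higher in KO than in WT (1.42-fold, adjusted p = 0.067 over 18194 genes), with a 95% interval of 0.23 to 0.79. All 6 WT arrays in place of 3 gave adjusted p = 0.0435 on 1435449_at, and array weights gave 0.0175. Without T1572 replicate 2 it was called as well (adjusted p = 0.0401), and it was not called in the other 19 of 22 alternatives, nor was any other Bcl2l11 probe set in this comparison.

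The KO means of Bcl2l11 were also above those of both hypomorphs. KO minus T1572 ran from 0.46 to 0.75 over the 5 Bcl2l11 probe sets, with adjusted p between 0.0768 and 0.743, and their mean differed by 0.63 ± 0.13 (adjusted p = 0.0282 over genes). With the replicate number as a block, the KO minus T1572 difference on 1435449_at was called (0.69, adjusted p = 0.0346). The KO and T1572 arrays that share a number were of opposite sex type, so the block does not stand for 1 animal. KO minus N1638 ran from 0.25 to 0.64 (lowest adjusted p 0.206), and the mean differed by 0.48 (adjusted p = 0.223). The comparisons share KO arrays and are not independent of each other.

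**Figure D3:**
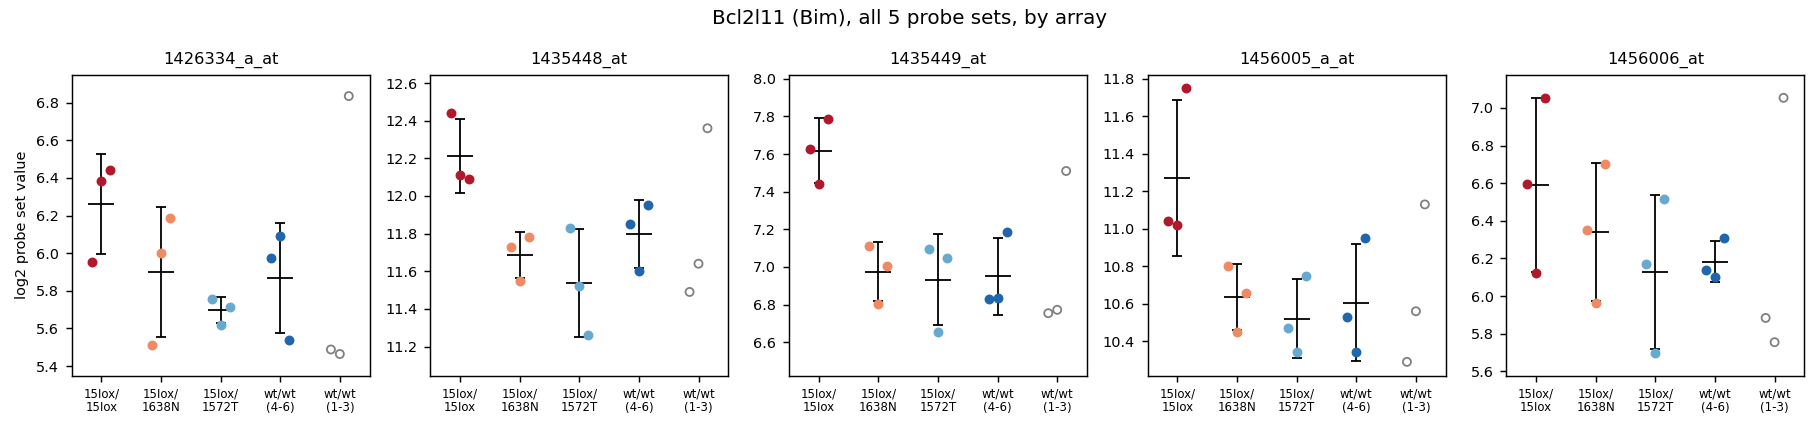
Log2 values of the 5 Bcl2l11 probe sets on every array, with black bars for mean and SD (n = 3) and hollow points for WT 1 to 3. The 15lox/15lox mean is the highest of the 4 groups in all 5 panels, while WT 3 lies above at least 1 of the 15lox/15lox arrays in each panel. Single values of WT 1 to 3 may not be plain measurements.

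Bbc3 encodes Puma, a BH3-only protein that binds all guardians. Its probe set 1423315_at read 8.72, 8.24 and 8.67 in KO, 8.56, 7.95 and 8.56 in N1638, 9.26, 8.88 and 8.40 in T1572, and 9.17, 9.12 and 9.05 in WT 4 to 6. KO and N1638 arrays lay below all WT arrays, which had the narrowest spread, and T1572 arrays overlapped them. The difference from WT was -0.57 ± 0.23 in KO (adjusted p = 0.396), -0.76 ± 0.23 in N1638 (0.141) and -0.27 ± 0.23 in T1572 (0.868), none called. The N1638 difference was called with all 6 WT arrays (adjusted p = 0.0187) and with array weights (0.0257), and in none of the 12 fits without 1 array.

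Bcl2l11 and Bbc3 are known targets of forkhead (FoxO) factors, and the promoter windows of the family that hold the forkhead letters are shown. Windows of 250 bases before each annotated start (RefSeq, GRCm38.p6) were available for 8 of the 9 measured genes, 14 windows in all. The forkhead core was searched on both strands as TAAACA, which reads as TGTTTA on the other strand, and was in 2 of the 14 windows and in 12% of all 32851 windows of that length. The TCF and LEF core was searched as CTTTGA, which reads as TCAAAG on the other strand, and was in 0 of the 14 windows and in 13.8% of all. Both letter sets were chosen after the windows had been seen, and capitals mark the match. The match lies 226 bases before the start in the Bcl2l11 window chr2:128125788-128126037 (plus strand) and 167 bases before it in the Bbc3 window chr7:16310011-16310260 (plus strand).
Bcl2l11: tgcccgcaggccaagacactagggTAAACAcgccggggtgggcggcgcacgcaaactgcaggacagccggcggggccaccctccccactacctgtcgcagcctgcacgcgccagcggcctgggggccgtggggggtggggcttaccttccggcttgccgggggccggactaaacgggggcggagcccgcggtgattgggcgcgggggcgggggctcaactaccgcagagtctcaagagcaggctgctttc
Bbc3: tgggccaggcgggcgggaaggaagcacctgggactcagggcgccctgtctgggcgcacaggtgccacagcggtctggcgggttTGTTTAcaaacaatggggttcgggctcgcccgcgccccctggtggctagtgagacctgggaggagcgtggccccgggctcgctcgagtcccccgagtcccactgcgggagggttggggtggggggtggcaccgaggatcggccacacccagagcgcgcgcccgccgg
A match describes the letters only and says nothing of factor binding in these cells. The forkhead genes themselves were not called: Foxo1 differed from WT by -0.13 in KO, -0.93 in N1638 (adjusted p = 0.210) and -0.15 in T1572, and Foxo3 by -0.01, -0.18 and 0.05 in the same order. Both were named after their values were seen.

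Bid and Bad are BH3-only proteins that act after caspase-8 cleavage and after loss of survival-factor phosphorylation, and neither was called. The 3 Bid probe sets gave KO minus WT differences of -0.16, 0.45 and -0.43, so they disagree in sign, and the lowest adjusted p was 0.482. On 1417045_at, Bid read 11.70, 11.62 and 11.76 in KO, 11.74, 11.71 and 11.70 in N1638, 11.79, 11.87 and 11.96 in T1572, and 11.89, 11.89 and 11.79 in WT. KO and N1638 arrays lay below WT by 0.16 ± 0.08 and 0.14 ± 0.08, while the T1572 arrays overlapped WT. On 1447873_x_at Bid was 0.69 ± 0.26 higher in T1572 than in WT (adjusted p = 0.636). The Bad probe sets differed from WT by -0.10 to 0.19 over all 3 genotypes, with adjusted p of at least 0.615.

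The guardians, with 15 probe sets, gave no call in any genotype, and at an unadjusted p under 0.05 there were 0 in KO, 0 in N1638 and 0 in T1572. Mcl1 is the guardian that Noxa binds. On 1416880_at it read 12.85, 13.00 and 13.05 in KO, 12.78, 12.87 and 12.94 in N1638, 13.01, 13.01 and 12.87 in T1572, and 13.00, 12.92 and 12.97 in WT. All groups overlap, and KO minus WT was 0.00 with a 95% interval of -0.19 to 0.20. Over the 6 Mcl1 probe sets KO minus WT ran from -0.04 to 0.17, N1638 minus WT from -0.19 to 0.24 and T1572 minus WT from 0.00 to 0.18. The mean over probe sets differed from WT by 0.02 in KO (interval -0.15 to 0.19), -0.03 in N1638 and 0.08 in T1572.

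Bcl2, the founding guardian, split by probe set. On 3 probe sets (1422938_at, 1437122_at and 1457687_at) Bcl2 differed from WT by 0.01 to 0.05 in KO, 0.01 to 0.38 in N1638 and 0.01 to 0.13 in T1572. On the 2 others (1440770_at and 1443837_x_at) it differed by 0.52 and 0.65 in KO, 0.70 and 0.52 in N1638 and 0.73 and 0.68 in T1572, and none was called (lowest adjusted p 0.362, N1638, 1440770_at). On 1440770_at the KO arrays read 10.58, 11.45 and 11.10, the N1638 arrays 11.08, 11.61 and 10.99, the T1572 arrays 10.95, 12.16 and 10.66, and WT 4 to 6 read 10.33, 10.80 and 10.44. N1638 arrays did not overlap WT, and KO and T1572 arrays did. The mean over all 5 Bcl2 probe sets was 0.25 ± 0.17, 0.35 ± 0.17 and 0.31 ± 0.17 higher than WT in KO, N1638 and T1572 (adjusted p 0.603, 0.282 and 0.717). 

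Bcl2l1, which guards late erythroid progenitors, differed from WT by -0.34 to 0.02 over its 4 probe sets in KO, -0.30 to 0.02 in N1638 and -0.18 to 0.01 in T1572, with intervals on 1426191_a_at reaching -1.20 in KO, so that the interval covers both no difference and a level 1 log2 unit below WT.

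The effector Bak1, with 2 probe sets, was not called. On 1418991_at it read 11.33, 11.48 and 11.34 in KO, 11.51, 11.62 and 11.26 in N1638, 11.42, 11.39 and 11.37 in T1572, and 11.38, 11.38 and 11.47 in WT. All groups overlapped, with KO minus WT -0.03 (interval -0.25 to 0.19). On 1425716_s_at the differences were 0.08, 0.26 and -0.13 for KO, N1638 and T1572.

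Between mutant genotypes the family gave 0 calls at probe set level: 0 of 29 in KO against N1638 (0.186% of all probe sets called; 3 higher and 1 lower at an unadjusted p under 0.05), 0 of 29 in KO against T1572 (1% of all; 4 higher and 1 lower) and 0 of 29 in N1638 against T1572 (0.171% of all; 0 and 0). The unadjusted counts are 13.8%, 17.2% and 0% of the family, against 8.67%, 8.03% and 7.72% of all probe sets. With the replicate number as a block, KO against T1572 gave 1 call, Bcl2l11 on 1435449_at (adjusted p = 0.0346). The lowest adjusted p was 0.206, 0.0768 and 0.649 in the same order, the first 2 on Bcl2l11. Arrays did not overlap on 6 probe sets that were higher and 1 that was lower in KO against N1638 (14% of all probe sets free of overlap), on 5 and 2 in KO against T1572 (10.5% of all) and on 0 and 4 in N1638 against T1572 (12.7% of all).

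Of the other genes of the pathway, those called in a comparison with WT were Fasl, Bcl2l14 and Bmf. Of 75 listed genes in 6 lists, 65 were measured. KO against WT gave 2 genes higher and 0 lower, where 1.82% of all genes were called higher and 0.638% lower. N1638 against WT gave 1 higher and 1 lower (0.951% and 1.64% of all), and T1572 against WT gave 0 and 0 (0.022% and 0.0385%). The caspases and apoptosome list (10 of 12 genes measured), the inhibitors of apoptosis (7 of 8), the p53 targets (15 of 15) and the upstream regulators (13 of 14) gave no call against WT. At an unadjusted p under 0.05 in KO, these 4 lists gave 1 gene higher and 0 lower, 0 and 0, 0 and 0, and 2 and 2, in the order named. The other Bcl2 family genes (11 of 16 measured) gave 2 and 2, and the death receptor pathway (9 of 10) gave 1 and 2, where 5.75% of all genes were higher and 10.8% lower. In N1638 the 6 lists gave 1 and 1, 1 and 3, 1 and 3, 3 and 3, 2 and 3, and 2 and 4 in the same order, where 9.66% of all genes were higher and 16.3% lower. In T1572 they gave 1 and 0, 1 and 0, 2 and 0, 1 and 1, 1 and 1, and 0 and 1, where 3.65% of all genes were higher and 8.36% lower.

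Between mutant genotypes, Fasl was the 1 listed gene higher in KO than in N1638 (0.324% of all genes higher, 0.0275% lower). Fasl and Bcl2l14 were higher in KO than in T1572 (1.55% of all genes higher, 0.11% lower). N1638 against T1572 gave 0 and 0 (0.313% and 0.022%), and no listed gene was called lower in these comparisons.

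Fasl encodes Fas ligand, the death ligand that engages the Fas receptor. On 1449235_at it read 8.09, 7.62 and 8.54 in KO, 5.36, 5.07 and 6.39 in N1638, 4.45, 3.99 and 4.30 in T1572, and 4.11, 4.22 and 4.14 in WT. KO arrays lay far above all others, N1638 arrays above T1572 and WT, and T1572 arrays overlapped WT. KO was 15.2-fold higher than WT (adjusted p = 5.18e-05), and this call held in all 22 alternatives. N1638 was 2.73-fold higher (adjusted p = 0.0494) and lost its call in 12 of 22 alternatives. KO stood above N1638 by 2.48 log2 (adjusted p = 0.0101) and above T1572 by 3.84 log2 (adjusted p = 8.28e-05). On this probe set the call against N1638 held in 18 of 22 alternatives, with adjusted p up to 0.251, and the call against T1572 in all 22. Only 7.77% of probe sets had a lower mean than this one in T1572 and 5.92% in WT, and the table holds no detection calls, so the folds against T1572 and WT are best read as lower bounds. The other Fasl probe set, 1418803_a_at, was 4.13-fold higher in KO than in WT (adjusted p = 0.000159) and 1.28-fold higher in N1638 (adjusted p = 0.384, not called).

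Bcl2l14, a Bcl2 family gene of unsettled role, was 1.31 ± 0.23 log2 higher in KO than in WT on 1424814_a_at (2.48-fold, adjusted p = 0.0137) and 1.37 higher on 1429347_at (adjusted p = 0.0369). On the first, KO arrays read 8.51, 8.65 and 8.74, N1638 arrays 8.25, 7.44 and 8.43, T1572 arrays 7.12, 7.23 and 7.54, and WT arrays 7.16, 7.56 and 7.25. KO arrays lay above all other arrays. The call against WT on 1424814_a_at was lost without KO 2, KO 3, WT 4 or WT 6 and with sex type as a covariate (adjusted p = 0.103). The call on 1429347_at held in 12 of 22 alternatives, with adjusted p between 0.00468 and 0.223. It was lost without N1638 1, T1572 1, KO 2, KO 3 or any 1 of the 3 WT arrays. It was also lost with sex type as a covariate (adjusted p = 0.223) and with only the KO and WT arrays (adjusted p = 0.0582). The replicate block, which against WT rests on WT 1 to 3, lost it as well (adjusted p = 0.0679). Against T1572, 1424814_a_at was called in 18 of 22 (adjusted p between 0.00109 and 0.0761), all but the fits without KO 2, KO 3, T1572 1 or T1572 2. On 1429347_at, KO was 1.17 log2 above T1572 and not called in the main fit (adjusted p = 0.111). That difference was called in 1 of 22 alternatives.

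Bmf, a BH3-only gene, fell in N1638 on 1454880_s_at. This probe set is not the one of highest mean and was named after its values were seen. It read 7.27, 6.11 and 7.59 in KO, 6.63, 6.39 and 7.04 in N1638, 7.29, 7.21 and 7.40 in T1572, and 8.20, 8.18 and 8.12 in WT. All mutant arrays lay below all WT arrays. N1638 minus WT was -1.48 ± 0.30 (2.79-fold lower, adjusted p = 0.042), KO minus WT -1.18 ± 0.30 (adjusted p = 0.114) and T1572 minus WT -0.87 ± 0.30 (adjusted p = 0.606). The N1638 call was lost in 9 of 22 alternatives, and the other 2 Bmf probe sets were not called.

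**Figure D4:**
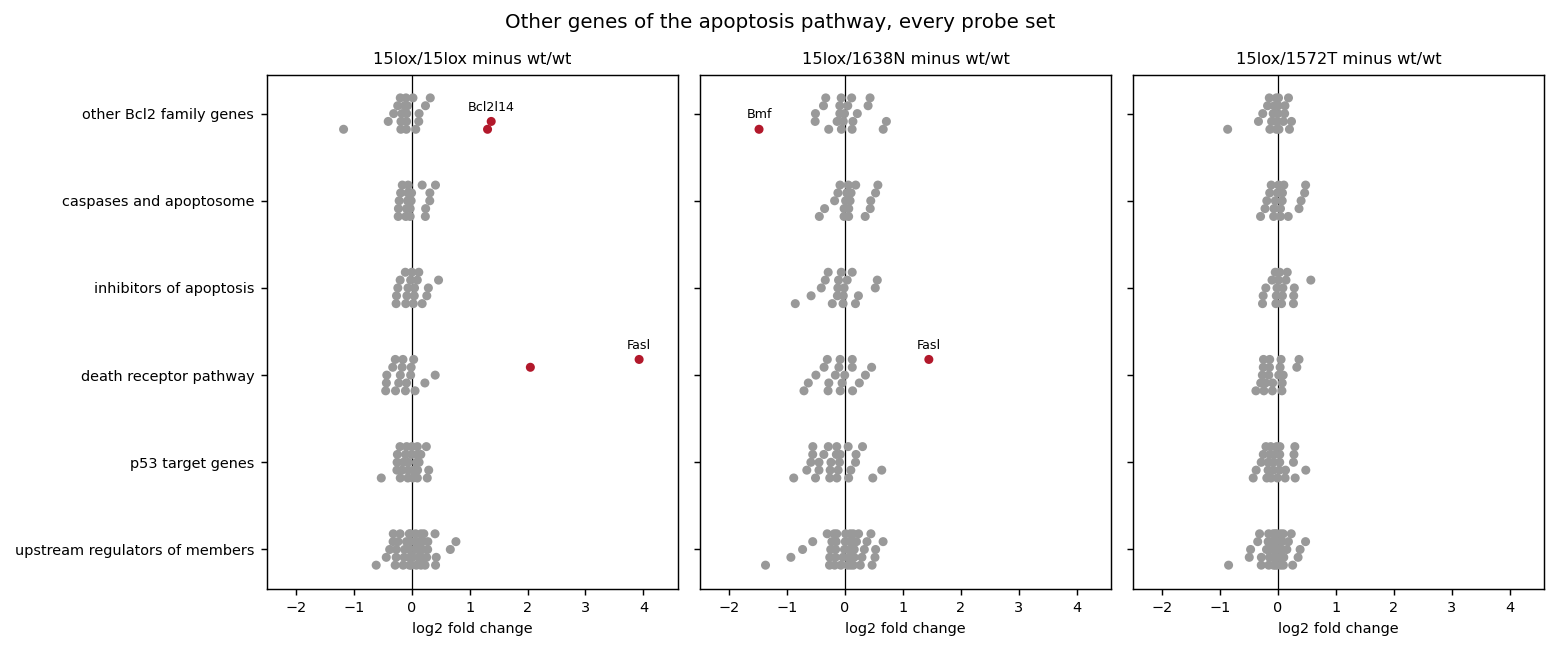
Log2 fold change from WT arrays 4 to 6 of every probe set in the 6 apoptosis lists, one panel per mutant genotype; points are probe sets and red marks an adjusted p under 0.05 (limma, n = 3 arrays per group). Fasl and Bcl2l14 stand out in 15lox/15lox, Fasl and Bmf in 15lox/1638N, and no point is red in 15lox/1572T.

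The 5 genes whose values followed those of Pmaip1 most closely over the 12 arrays were Ganab (Pearson r = 0.913), Tmed9 (0.912), Bmp2k (0.911), Hs3st3b1 (0.911) and Sppl2a (0.910). Pmaip1 had the lowest moderated F p of the family over the 4 groups (0.00158), which is why it was the one compared. These values describe likeness over the same 12 arrays and carry no test.

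Summed linear levels of the markers of other blood cells were free of overlap with WT in several lists. Dendritic cell markers (5 of 5 measured) summed to 5824 to 8936 in KO, 4814 to 6228 in N1638, 6236 to 9058 in T1572 and 10425 to 20395 in WT, so all mutant arrays lay below WT. H2-Aa and Cd74 of this list were called lower in N1638, where 1.64% of all genes were, and no gene of it was called in KO or T1572. The median difference from WT over its 5 genes was -1.13 in KO, -1.85 in N1638 and -1.21 in T1572. Over all genes it was -0.05, -0.03 and -0.03. The list includes Flt3, which was not called. Flt3 is also counted among the progenitor markers and makes up most of the N1638 sum. Flt3 means were 12.42, 12.12, 12.32 and 12.72 log2 in KO, N1638, T1572 and WT. T cell markers (4 of 5) summed to 139 to 149, 142 to 151, 130 to 154 and 156 to 169 in the same order, and no gene of the list was called. These are dim probe sets: Cd3e (1422105_at) and Cd4 (1419696_at) stood at percentile 25 of all probe set means and Cd8a (1425335_at) at 36. Their sums may hold little but background signal.

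B cell markers (4 of 5) summed to 137 to 146 in KO, 128 to 148 in N1638, 147 to 205 in T1572 and 197 to 275 in WT. Ebf1, a B lineage factor, was the 1 gene of that list called, at -1.83 in KO (adjusted p = 0.0345) and -2.35 in N1638 (adjusted p = 0.0129) on its probe set of highest mean, and the other 4 Ebf1 probe sets were not called (-0.31 to -0.15 in KO, adjusted p of 0.215 or above in N1638). The B cell genes Cd79a, Ms4a1 (1423226_at) and Pax5 (1421765_at) differed from WT by -0.20, -0.03 and -0.05 in KO and by -0.14, 0.07 and 0.03 in N1638, and none was called. These probe sets were dim as well, at percentile 37, 23 and 28 of all probe set means.

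Neutrophil markers (4 of 5) summed to 19580 to 22926 in KO, 20533 to 21258 in N1638, 21566 to 24671 in T1572 and 19097 to 20349 in WT, above WT in N1638 and T1572. Mast cell and basophil markers (4 of 4) summed to 9815 to 12485, 11750 to 12481, 14791 to 19191 and 12390 to 14386 in the same order, above WT in T1572. Cd14, a monocyte gene, was higher in KO (5.46-fold), N1638 (11.8-fold) and T1572 (5.77-fold), while the monocyte list (4 of 5) summed to 2489 to 8200, 2596 to 4983, 3430 to 9061 and 3320 to 6171 in the order KO, N1638, T1572 and WT, and overlapped WT, as did the erythroid and megakaryocyte lists. The part of these cells in the Pmaip1, Bcl2l11, Bbc3, Fasl, Bcl2l14 and Bmf values was not tested.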

How the data were processed

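RNA of 15 samples was read on 15 expression arrays, 1 per sample. The deposited log2 values are the authors' probe set summaries. Per the submitters' processing notes RMA and mm9 were used. Neither has a stated role or version, and further settings were not given in the sources used here. The log2 scale is read from the values. The number of arrays limits the precision.

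Probe sets were named by the platform annotation: 34958 had 1 symbol, 932 had several and 9211 were not listed. Several symbols left out 3 probe sets of Bcl2a1 genes. A linear model with moderated variances (limma 3.58.1, R 4.3.3) was fitted to all 45101 probe sets on 12 arrays with 6 contrasts and no filter, and p-values were adjusted by Benjamini-Hochberg per contrast. The fit was tested on simulated data. Fold changes are differences of log2 means, ± SE in the text, and group values are as deposited. Sex type was read from Xist with a cut at 11. The members and gene lists were chosen with earlier results of these data known. Named genes were all members, and from each list at most the 4 called genes of lowest p, by the probe set of highest mean. Arrays with the same replicate number in their titles were checked for shared deviations from the group means. The correlations were 0.208, 0.212 and 0.143 for the 3 pairs of KO and T1572. The main fit left this comparison unpaired, and it is also given with the number as a block. By Xist the arrays of each of these 3 pairs were of opposite sex type, so they did not come from 1 animal. What the shared deviations stem from was not tested. The 6 other pairs of mutant arrays ran from -0.071 to 0.379 with 3 over 0.1, short of the rule that all pairs of a comparison exceed 0.1.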

Additional observations from a re-analysis of the deposited data

How the results depend on the processing

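Each count was recomputed under 22 alternatives, 12 of which left out 1 array. KO against WT gave 1 call in the family. It gave 2 with all 6 WT arrays, 2 with array weights and 0 with sex type as a covariate, and 0 to 2 over the fits without 1 array, of which 10 gave 0. Over all 45101 probe sets the same comparison gave 674 calls in the main fit. These became 1951 with all 6 WT arrays, 1124 with array weights, 346 with sex type and 387 to 753 without 1 array. N1638 against WT also gave 1 call in the family. It gave 2 with all 6 WT arrays, 2 with array weights and 0 with sex type as a covariate, and 0 to 1 without 1 array, of which 9 gave 0. Over all probe sets N1638 against WT gave 623 calls in the main fit. These became 3912 with all 6 WT arrays, 3443 with array weights, 392 with sex type and 159 to 882 without 1 array. The calls that the family gained with all 6 WT arrays and with array weights came where calls rose over the whole array. Without T1572 replicate 2, KO against WT gave 2 in the family, while calls over the whole array fell to 637. KO against T1572 gave 0 in the family, then 1 with trend and robust moderation, 1 with the replicate block and 1 with the mean of the probe sets of each gene, and 0 to 1 without 1 array. Over all probe sets these were 451 in the main fit, 479 with trend and robust moderation, 357 with the block and 329 to 496 without 1 array. Over 18194 gene means they were 321. T1572 against WT, KO against N1638 and N1638 against T1572 gave 0 calls in the family in all 22. The cause of these shifts was not tested. Fits without 1 array have fewer degrees of freedom, and the part of this in the shifts was not tested either.

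The replicate numbers met the rule for pairing in KO against T1572 and not in the other comparisons between mutants, and 14 of 18 array and group combinations correlated best with their own number, a hint from the data rather than the design. The block moved the count in KO against T1572 by the call on Bcl2l11 1435449_at and changed no other call there. For comparisons with WT, the fit with the replicate block was given all 15 arrays, but its differences rest on WT 1 to 3. WT 4 to 6 share no number with the mutants, so each has a block of its own and adds nothing to them. This fit gave 1 call each in KO and N1638 against WT, and it depends on arrays whose single values may not be plain measurements. Among 4746 single values, 4655 kept their side of the threshold, 25 gained a call and 66 lost one. The sign changed in 247, none of them called in either fit. The mean of WT 1 to 3 nearly equals that of WT 4 to 6, so a fit with all 6 counts as independent arrays that may not be. Signal near the array's lower range limits folds of dim probe sets.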
